A study of Mus musculus with 6 samples.

Results

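Vitamin A reaches cells as retinol and acts mainly as retinoic acid, and the genes described here cover that route from carrier to receptor. They are Rbp4, Stra6, Aldh1a1, Aldh1a2, Aldh1a3, Rara, Rarb, Rxra and Rxrg, 9 genes taken by symbol from the 46959 gene symbols of the deposited expression table. All 9 had a value in each of the 6 libraries. Of these, Rbp4, Aldh1a3, Rara and Rxra reached 1 RPKM (a read count divided by the gene's length in kilobases and by the library's reads in M) in at least 2 libraries and were among the 13022 genes tested. The other 5 stayed below that level in the table and are described by their reads.

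RNA was sequenced from mouse pancreatic islet cells that had been sorted by their fluorescence, with 2 libraries for each of 3 populations. The design sets cells that carry the insulin reporter together with the lineage label of delta cells beside beta cells and delta cells of the same islets. All groups came from adult mice with the same 3 alleles: mIns1-H2b-mCherry, a nuclear red reporter under an Ins1 promoter, Sst-cre, which puts Cre under the somatostatin promoter, and a floxed YFP allele. The first group, called transdifferentiated, was positive for both mCherry and YFP. The second, beta cells, was sorted for mCherry, and the third, delta cells, for YFP. YFP is permanent once Cre has acted, so it marks any cell in which Sst-cre was active at some time, and the mCherry gate reads the Ins1 promoter, not insulin protein. Each pool held the islets of 10 to 12 animals of 1 sex, and each group has 1 library from a male pool (replicate 1) and 1 from a female pool (replicate 2). The series text once calls alpha cells the origin of the cells with both reporters and once speaks of bitransgenic females, while its title, the sample labels and Sst-cre point to delta cells and the labels to both sexes. The series text has the populations sorted from the same islets, pooled by sex, but the sample titles carry a numbered token that differs between the populations and is not explained. If it numbers pools, libraries called male pool or female pool below share the sex and not the animals. With pools as the replicates, p-values measure the spread between these pools. As each group has 1 pool of each sex, that spread includes any difference between the sexes.

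Retinol circulates bound to the carrier RBP4, which in plasma is held by transthyretin, and enters some cells through the receptor STRA6. Alcohol and retinol dehydrogenases turn retinol into retinaldehyde, and the ALDH1A enzymes oxidise retinaldehyde to retinoic acid. Retinoic acid binds the receptors RARA, RARB and RARG, which act on DNA paired with RXRA, RXRB or RXRG, and the RXRs also pair with other nuclear receptors. In the pancreas the pathway is known for its part in early budding and endocrine differentiation, Rbp4 is known as a transcript of delta cells, and Aldh1a3 has been studied in mice as a mark of dedifferentiated beta cells.

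The promoter of Rarb and that of Rbp4 are shown because Rarb is a textbook retinoic acid target that was near 0 here and Rbp4 was the most abundant of the 9 genes. Receptor pairs bind direct repeats of a hexamer, and 4 hexamers (AGGTCA or AGTTCA or GGTTCA or GGGTCA) were searched as direct repeats with a spacer of 1, 2 or 5 bases (any letters, N) on both strands. RefSeq promoter windows (GRCm38.p6, 250 bases before to 50 after each annotated start) were found for 8 of the 9 genes, in 18 windows. A repeat with a spacer of 5 was in 32 of 32851 windows (0.0974%), and among the retinoid genes listed here it was in Rarb and in Cyp26a1, which encodes a retinoic acid hydroxylase. A spacer of 1 was in 73 windows (0.222%), with the retinoid gene Bco1 among them, and a spacer of 2 in 88 (0.268%), with no retinoid gene. The counts are not exclusive, since repeats of different spacing may share a hexamer. The letters TATAAA, searched on the gene's own strand, were in 2733 windows (8.32%), and Rbp4 was the only 1 of the 8 genes with a window that had them, while Aldh1a3 had no window to search. Capitals below mark the matched letters, each sequence reads 5′ to 3′ along the gene's own strand, and a match is a description of letters, not of binding.
Rarb: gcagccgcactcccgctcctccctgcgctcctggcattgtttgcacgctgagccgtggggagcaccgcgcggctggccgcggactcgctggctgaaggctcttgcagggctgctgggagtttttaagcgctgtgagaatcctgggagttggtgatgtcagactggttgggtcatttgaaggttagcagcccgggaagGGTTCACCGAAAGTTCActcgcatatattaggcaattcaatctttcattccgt
Cyp26a1: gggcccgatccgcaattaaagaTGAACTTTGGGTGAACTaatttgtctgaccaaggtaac
Bco1: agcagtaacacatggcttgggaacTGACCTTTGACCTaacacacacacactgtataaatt
Rbp4: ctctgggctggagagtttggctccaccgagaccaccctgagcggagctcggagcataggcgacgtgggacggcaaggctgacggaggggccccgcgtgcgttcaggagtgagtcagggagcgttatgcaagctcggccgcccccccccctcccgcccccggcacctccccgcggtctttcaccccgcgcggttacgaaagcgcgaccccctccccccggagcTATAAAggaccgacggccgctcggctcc
The Rarb stretch is chr14:16575477-16575726 on the minus strand, and its repeat lies at positions -53 to -37 from the start. The Cyp26a1 stretch is chr19:37697754-37697813 and the Bco1 stretch chr8:117095785-117095844, both on the plus strand, and in both the repeat reads on the opposite strand. The Rbp4 stretch is chr19:38124812-38125061 on the minus strand, with TATAAA at -28 to -23.

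The denominators worked out from the low values were 10.9 to 12.5 M reads in transdifferentiated, 20.5 to 21.6 M in beta and 15.7 to 17.0 M in delta libraries. Sorted populations matched their labels: Ins2 was at 68230 and 73020 RPKM in transdifferentiated, 243303 and 169339 RPKM in beta and 1125 and 1369 RPKM in delta libraries. Sst, the somatostatin gene, was at 12842 and 12933 RPKM in transdifferentiated, 71.1 and 86.8 RPKM in beta and 49769.6 and 58480.5 RPKM in delta libraries. The insulin transcripts take up much of the beta libraries, and taken over all tested genes the median log2 fold change was -0.03 for transdifferentiated against delta, 0.32 for transdifferentiated against beta and -0.36 for beta against delta cells. Values after median-of-ratios scaling, which brings these medians close to 0, are given where they change a call described here. Summed RPKM of 7 acinar markers was 1845 in the male and 64.4 in the female transdifferentiated library, 6927 and 266 in the beta libraries and 503 and 280 in the delta libraries. None of 10 mesenchymal markers reached 1 RPKM in any library. Of 6 immune markers, 5 reached it in both beta libraries, 2 and 3 in the transdifferentiated and 2 in both delta libraries. Their summed RPKM was 44.6 and 46.3 in transdifferentiated, 93.9 and 108 in beta and 73.8 and 88.2 in delta libraries. The part of immune RNA in the values below was not tested.

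Rbp4, the gene of the plasma retinol carrier (chr19:38116629-38125281, GRCm38), was the member with the widest range. It was at 569 RPKM (male pool) and 577 RPKM (female pool) in transdifferentiated, 8.19 and 9.31 RPKM in beta, and 1768 and 1955 RPKM in delta libraries. These values rest on about 9572 and 8454 reads in transdifferentiated, 237 and 256 in beta and 40292 and 41169 in delta libraries. The groups did not overlap, and transdifferentiated cells stood between beta and delta cells in both pools. On the log2(RPKM + 1) scale, where changes of low genes come out too small, Rbp4 was lower in transdifferentiated than in delta cells, with a fold of -1.70 in log2 units (SE 0.11, limma adjusted p = 0.000636, Benjamini-Hochberg over all genes tested). It was higher in transdifferentiated than in beta cells by 5.88 (SE 0.11, limma adjusted p = 4.75e-06) and lower in beta than in delta cells by -7.58 (SE 0.11, limma adjusted p = 9.04e-07). All 3 calls held under each alternative run. Within the pools the difference between transdifferentiated and delta cells was -1.635 (male) and -1.76 (female).

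**Figure D1:**
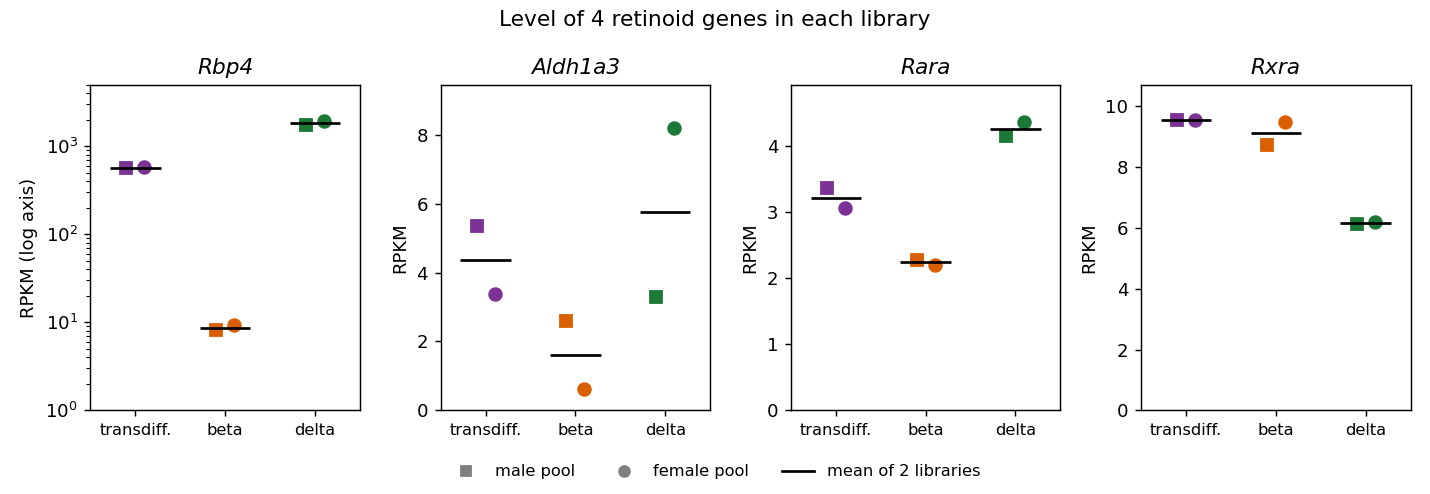
Level in RPKM of the 4 tested genes in each library, by group, with squares for male and circles for female pools and a line at the mean of the 2 libraries. The Rbp4 axis is logarithmic and the others start at 0. Rbp4 lies between 569 and 577 RPKM in transdifferentiated libraries, at 8.19 and 9.31 RPKM in beta and at 1768 and 1955 RPKM in delta libraries, while the Aldh1a3 libraries of 1 group are far apart.

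Expressed as a share of the delta mean, Rbp4 was at 30.8% in transdifferentiated and 0.470% in beta cells. For the other 5 genes of the delta marker list, the shares in transdifferentiated and beta cells were 23.8% and 0.146% for Sst, the delta hormone, 36.0% and 0.179% for Hhex, a delta-cell transcription factor, 33.8% and 0.0905% for the ghrelin receptor Ghsr, and 36.3% and 0.0964% for the phosphatase Ptprz1. For the calcium-sensing receptor Casr they were 62.5% and 32.4%. Rbp4 thus lay among Sst, Hhex, Ghsr and Ptprz1 in transdifferentiated cells and above those 4 in beta cells, and it was below Casr in both. The order of these shares is a description, since no test of the difference between genes was made. In bulk libraries fewer cells that express a gene and less of its RNA per cell cannot be told apart. Rbp4 is itself on the list of delta markers. The delta libraries also held more of the alpha markers (6 genes, summed RPKM 1799.8 and 2594 in transdifferentiated against 15149.7 and 16520.5 in delta libraries) and of Ppy and Pyy (11877 and 12041 against 36498 and 37076), and their part in the Rbp4 difference was not tested.

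The genes whose profiles over the 6 libraries lay closest to that of Rbp4 were Hhex (Euclidean distance 0.579 on the centred log2 scale), the arginase Arg1 (0.821), the peptide hormone gene Pyy (1.48), Sst (1.93) and the surface antigen gene Cd24a (1.98). Hhex averaged 62.4 RPKM in transdifferentiated cells, 0.311 in beta cells and 173 in delta cells. Arg1 averaged 81.8 RPKM in transdifferentiated cells, 1.03 in beta cells and 262 in delta cells. These are likenesses of level across 3 sorted populations and carry no test.

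Stra6, the gene of the retinol entry receptor (chr9:58063788-58153996), had 1 and 2 reads in the transdifferentiated libraries, 3 and 9 reads in the beta libraries and 0 and 2 reads in the delta libraries. The highest value was 0.0755 RPKM, in the female beta library. The value of 3 reads was 0.0239 to 0.0472 RPKM and 5 of the 6 libraries had no more than that, so these reads do not decide whether Stra6 differed. In the transdifferentiated and delta libraries, where the carrier transcript was abundant, that of its receptor was at 2 reads or fewer.

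Of the retinaldehyde dehydrogenases, Aldh1a3 (chr7:66390890-66427517) was the one with measurable levels. It was at 5.34 and 3.38 RPKM in male and female transdifferentiated libraries, 2.60 and 0.625 RPKM in beta, and 3.28 and 8.21 RPKM in delta libraries. The reads behind these values were 309 and 170 in transdifferentiated, 259 and 59 in beta and 257 and 594 in delta libraries. The pools of 1 group were further apart than for any other tested member, and the transdifferentiated and delta ranges overlapped. The means were 4.36 ± 1.39 RPKM in transdifferentiated cells, 1.61 ± 1.40 RPKM in beta cells and 5.75 ± 3.48 RPKM in delta cells (SD, n = 2 libraries each).

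Aldh1a3 did not pass the test between transdifferentiated and delta cells, with a log2 fold change of -0.25 (95% interval -1.38 to 0.87, limma adjusted p = 0.789). The male pool gave 0.57 and the female pool -1.07 for this difference. Between transdifferentiated and beta cells the log2 fold change was 1.12 (SE 0.47, limma adjusted p = 0.0866), with 0.82 in the male and 1.43 in the female pool. It passed that test only when the male beta library was left out (1.70, limma adjusted p = 0.0429). Aldh1a3 fell in beta against delta cells by -1.38 (SE 0.47, limma adjusted p = 0.0421), with -0.25 in the male and -2.50 in the female pool. That call ended after scaling (-1.08, limma adjusted p = 0.115), without the filter on low values (limma adjusted p = 0.130), with a filter at 0.25 RPKM (limma adjusted p = 0.0582), and without either transdifferentiated library (limma adjusted p = 0.0666 without the male and 0.0667 without the female one). It also ended without the female beta library (-0.80, limma adjusted p = 0.209) or the female delta library (-0.82, limma adjusted p = 0.204). In the beta and transdifferentiated groups the male library had both the higher Aldh1a3 and the higher acinar sum, whereas in the delta group Aldh1a3 was lower in the male library, and the part of acinar RNA in these values was not tested.

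Aldh1a1 (chr19:20492715-20643465) had 2 and 5 reads in transdifferentiated, 4 and 10 reads in beta and 8 and 11 reads in delta libraries. Its highest value was 0.342 RPKM, in the female delta library. Aldh1a2 (chr9:71215789-71296243), the main retinoic acid source of the early mouse embryo, had 2 and 4 reads in transdifferentiated, 0 and 0 in beta and 12 and 3 in delta libraries. A count of 0 allows up to 3 reads, or 0.0614 and 0.0648 RPKM in the male and female beta libraries. Neither gene passed the test when the filter on low values was dropped, and the lowest limma adjusted p was 0.130, for Aldh1a2 in beta against delta cells. With 1 added to each RPKM before the log, differences between values this low come out small, so these tests cannot decide whether either gene differed. Aldh1a3 made up 89.8% to 97.3% of the summed RPKM of the 3 enzymes in transdifferentiated, 72.4% to 96.6% in beta and 85.8% to 95.1% in delta libraries.

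**Figure D2:**
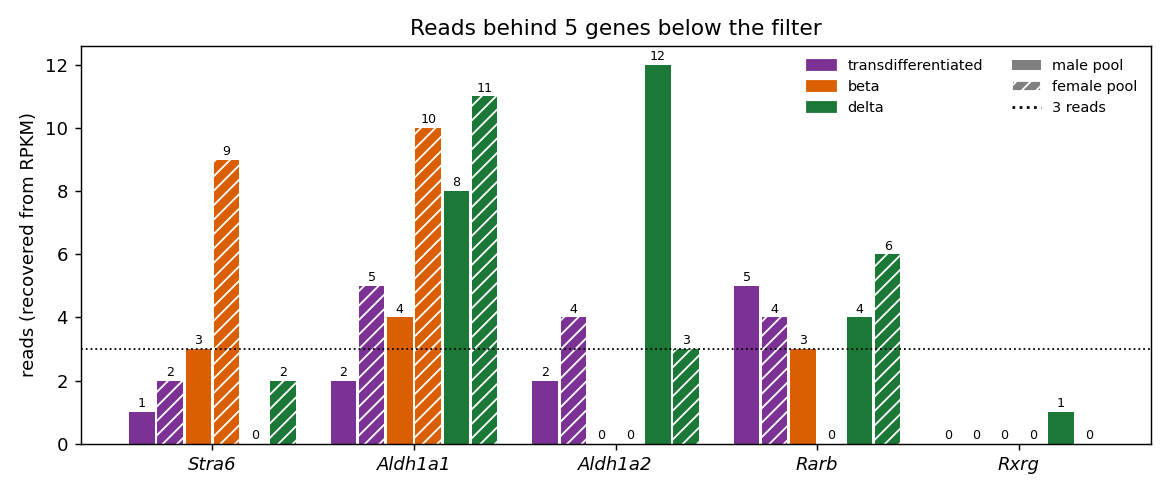
Reads of the 5 genes below the filter in each library, worked out from RPKM and gene length, with plain bars for male and hatched bars for female pools, and a dotted line at 3 reads. The tallest bar is Aldh1a2 in the male delta library at 12 reads, and Rxrg has 1 read in all.

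Rara, a retinoic acid receptor expressed in most tissues (chr11:98927818-98974942), was at 3.36 and 3.07 RPKM in transdifferentiated, 2.27 and 2.21 RPKM in beta and 4.15 and 4.37 RPKM in delta libraries. These values rest on 184 and 146 reads in transdifferentiated, 214 and 197 in beta and 307 and 299 in delta libraries. The 3 groups did not overlap, and transdifferentiated cells again lay between the others. Rara fell in beta against delta cells by -0.70 (SE 0.11, limma adjusted p = 0.00229), a call that held under every alternative run (-0.38 after scaling, limma adjusted p = 0.0261). Rara was at 75.5% of the delta mean in transdifferentiated cells, which did not pass the test (log2 fold change -0.32, 95% interval -0.59 to -0.05, limma adjusted p = 0.129).

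Between transdifferentiated and beta cells Rara was higher by 0.38 (SE 0.11, limma adjusted p = 0.0296). Close to the median of all genes in that comparison (0.32), it was at 0.08 after scaling (limma adjusted p = 0.544). The call also ended without the filter on low values (limma adjusted p = 0.0594) and when any 1 of the 6 libraries was left out, with limma adjusted p from 0.0518 without the male beta library to 0.137 without the male transdifferentiated library. Profiles near to that of Rara were those of the small GTPase gene Rhoj (distance 0.0624) and the splicing and transcription cofactor gene Snw1 (0.0865).

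Rarb (chr14:16430839-16819156), whose promoter carries the repeat shown above, had 5 and 4 reads in transdifferentiated, 3 and 0 reads in beta and 4 and 6 reads in delta libraries. Its highest value was 0.131 RPKM, in the male transdifferentiated library. No comparison of Rarb passed the test without the filter, and the lowest limma adjusted p was 0.0722, for transdifferentiated against beta cells. At values this low that test cannot decide whether Rarb differed, for the same reason as for Aldh1a2. Cyp26a1, with a repeat of the same spacing, was at 0.0900 and 0.103 RPKM in transdifferentiated, at 0 in both beta and at 0.133 and 0.0719 RPKM in delta libraries. Cyp26b1 and Cyp26c1, which also clear retinoic acid, reached at most 0.164 RPKM in any library.

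Rxra, an RXR gene (chr2:27676440-27762957), was at 9.54 and 9.56 RPKM in transdifferentiated, 8.74 and 9.49 RPKM in beta and 6.13 and 6.20 RPKM in delta libraries. The reads were 653 and 569 in transdifferentiated, 1029 and 1060 in beta and 568 and 531 in delta libraries. Delta cells were the low group, unlike for Rbp4 and Rara. Rxra was higher in transdifferentiated than in delta cells by 0.56 (SE 0.10, limma adjusted p = 0.0179), with 0.56 in the male and 0.55 in the female pool. The fold stayed between 0.55 and 0.57 with any 1 library left out, but the call ended without the male or female transdifferentiated library (limma adjusted p = 0.0997 and 0.104) and without the male or female delta library (limma adjusted p = 0.128 and 0.147).

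Beta cells, too, had more Rxra than delta cells, by 0.50 (SE 0.10, limma adjusted p = 0.00678) and by 0.88 after scaling (limma adjusted p = 0.000541). That call ended without the male delta library (limma adjusted p = 0.0605) or the female delta library (limma adjusted p = 0.0523). Between transdifferentiated and beta cells the log2 fold change of Rxra was 0.06 as deposited (95% interval -0.19 to 0.31, limma adjusted p = 0.643) and -0.31 after scaling (limma adjusted p = 0.0311), so its direction turned with the scaling. The nearest profiles were those of Tbc1d8 (distance 0.0542), the focal adhesion gene Tes (0.0811) and the kinase gene Eef2k (0.116). Rxrg (chr1:167598384-167639623) had 1 read in the male delta library and 0 in the other 5, which allows up to 0.0606 to 0.120 RPKM there.

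**Figure D3:**
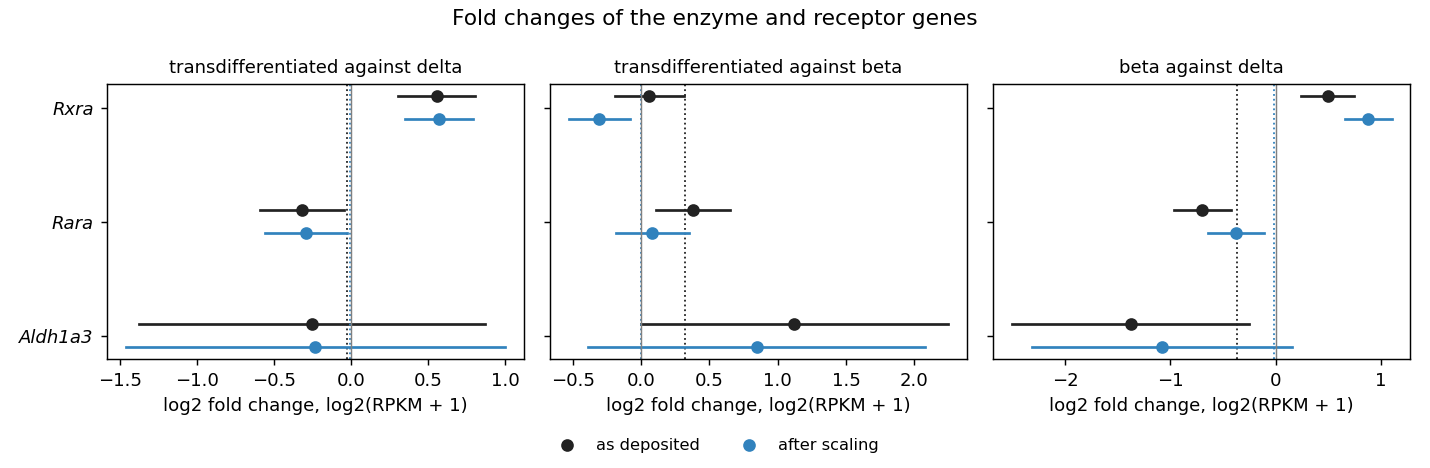
Log2 fold changes on the log2(RPKM + 1) scale with 95% intervals from limma for Rxra, Rara and Aldh1a3, in 3 panels for the 3 comparisons, each with its own axis. Black points are the values as deposited and blue points those after median-of-ratios scaling, and dotted lines mark the median of all genes tested. The Rxra points lie at 0.06 and -0.31 between transdifferentiated and beta cells, on either side of 0.

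Rarg and Rxrb complete the receptor families, and Rxrb is named for that reason although it passed no test. RPKM is a level per length, so the genes can be summed. The RAR genes summed to 10.2 and 9.33 RPKM in transdifferentiated, 6.35 and 6.93 RPKM in beta and 15.5 and 15.1 RPKM in delta libraries. The RXR genes summed to 20.2 and 18.9 RPKM in transdifferentiated, 19.0 and 18.9 RPKM in beta and 16.8 and 17.6 RPKM in delta libraries. The ratio of RAR to RXR transcripts, which scaling between libraries does not touch, was 0.505 and 0.495 in transdifferentiated, 0.334 and 0.366 in beta and 0.921 and 0.855 in delta libraries. The groups did not overlap in this ratio, and transdifferentiated cells were nearer to beta than to delta cells. Rxra made up 47.3% and 50.7% of the RXR sum in transdifferentiated, 45.9% and 50.2% in beta and 36.5% and 35.2% in delta libraries. Rarg made up 65.6% and 65.8% of the RAR sum in transdifferentiated, 63.5% and 68.2% in beta and 72.7% and 70.1% in delta libraries. These ratios are descriptions with 2 libraries in each group, and a ratio of transcripts shows unequal change, not which of the genes changed.

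**Figure D4:**
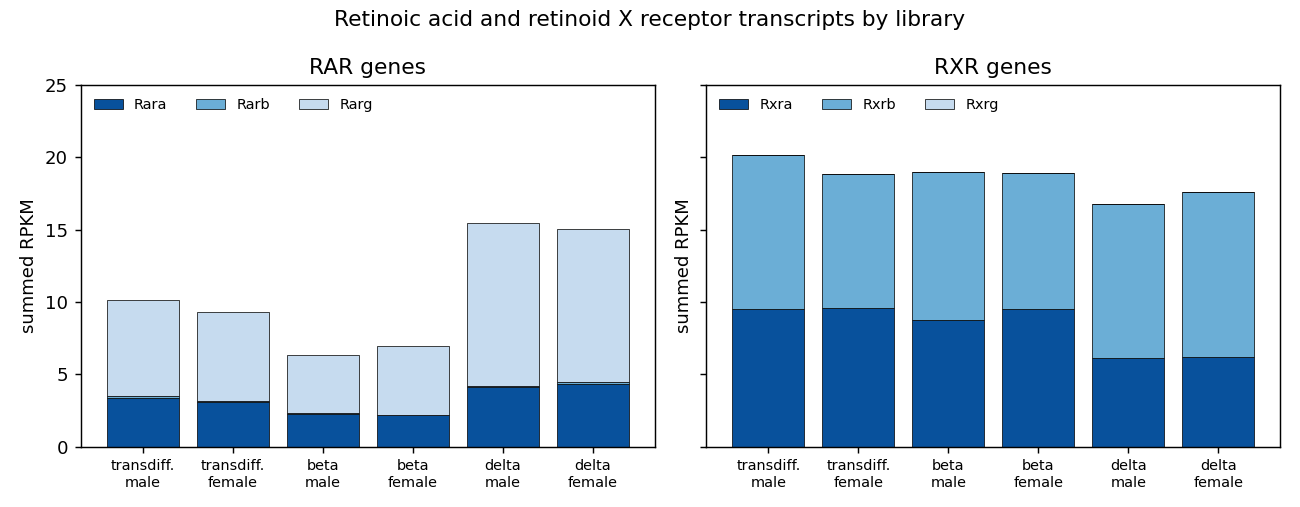
Summed RPKM of the 3 RAR genes (left) and the 3 RXR genes (right) in each library, with each bar divided by gene. RAR bars stand at 9.33 to 10.2 RPKM in transdifferentiated, 6.35 to 6.93 RPKM in beta and 15.1 to 15.5 RPKM in delta libraries, while RXR bars stand between 16.8 and 20.2 RPKM in all 6.

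Set against all genes, 1 member was higher and 1 lower in transdifferentiated than in delta cells, where 12.7% of all tested genes passed (5.53% higher and 7.2% lower). Against beta cells, 2 members were higher and none lower in transdifferentiated cells, where 51.0% of all genes passed (42.5% higher and 8.46% lower). After scaling that split was 1 higher (Rbp4) and 1 lower (Rxra) among the members, and 53.9% of all genes passed (27.8% higher and 26.1% lower). Between beta and delta cells 1 member was higher (Rxra) and 3 lower, with 57.9% of all genes passing (11.7% higher and 46.3% lower). After scaling 1 was higher and 2 lower, and 57.5% of all genes passed (27.8% higher and 29.7% lower). Against beta cells the members' share of calls, 2 of 4, was near that of all genes, and 4 tested members are too few to read the other shares.

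The wider pathway was read from 83 further genes in 7 lists, of which 46 were tested. In transdifferentiated against delta cells 7 were higher and 7 lower, with a median log2 fold change of -0.09 against -0.03 over all genes. In transdifferentiated against beta cells 21 were higher and 7 lower as deposited, and 12 higher and 11 lower after scaling, with a median of 0.37 against 0.32 over all genes. In beta against delta cells 8 were higher and 25 lower, and 14 higher and 18 lower after scaling, with a median of -0.66 against -0.36 over all genes. Of all tested genes 5.53% were higher and 7.2% lower in the first comparison. The shares were 42.5% and 8.46% in the second (27.8% and 26.1% after scaling). In the third they were 11.7% and 46.3% (27.8% and 29.7% after scaling). The calls that held under all alternatives that kept the filter numbered 3 of 14, 12 of 28 and 24 of 33 in these comparisons.

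Transport and storage, 14 genes with Rbp4 and Stra6 among them, had 7 tested. None was higher and 3 were lower in transdifferentiated than in delta cells (all genes 5.53% and 7.2%). Against beta cells 4 were higher and none lower in transdifferentiated cells (1 and 1 after scaling). Of all genes there 42.5% were higher and 8.46% lower (27.8% and 26.1% after scaling). In beta against delta cells none was higher and 6 were lower (none and 4 after scaling). Of all genes there 11.7% were higher and 46.3% lower (27.8% and 29.7% after scaling). The list's median log2 fold changes in these comparisons were -0.49, 0.515 and -0.89, against -0.03, 0.32 and -0.36 over all genes. Ttr, the gene of transthyretin, averaged 194 RPKM in transdifferentiated cells, 218 RPKM in beta cells and 596 RPKM in delta cells. It fell by -1.62 in transdifferentiated against delta cells (SE 0.15, limma adjusted p = 0.00167) and by -1.44 in beta against delta cells (SE 0.15, limma adjusted p = 0.000368), and both calls held in all alternatives run. Between transdifferentiated and beta cells Ttr did not pass the test as deposited (-0.18, limma adjusted p = 0.351), but it passed after scaling and was then lower in transdifferentiated cells (-0.58, limma adjusted p = 0.0310). It is also on the list of alpha markers, whose sum was higher in delta libraries, and that part was not tested. Bco1, which cleaves beta-carotene to retinaldehyde and carries the repeat shown above, was at 7.50 and 6.75 RPKM in transdifferentiated, 4.25 and 3.65 RPKM in beta and 12.9 and 14.7 RPKM in delta libraries. It fell by -1.58 in beta against delta cells (limma adjusted p = 0.000137). Its call in transdifferentiated against delta cells (-0.86) ended without the female transdifferentiated or the female delta library (highest limma adjusted p = 0.0813), and that against beta cells (0.72) ended after scaling (0.38, limma adjusted p = 0.0602). Scarb1 (-0.66), which takes up carotenoids, and Bco2 (-0.87) were likewise lower in beta than delta cells, and Dgat1 (0.52) and Scarb1 (0.39) were higher in transdifferentiated than in beta cells. All 4 of those calls ended after scaling, with limma adjusted p of 0.0615, 0.0544, 0.322 and 0.605 in the order given.

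Outside the members, the largest differences from delta cells in the pathway were those of Adh1, a cytosolic alcohol dehydrogenase that acts on retinol. It was at 42.0 and 43.2 RPKM in transdifferentiated, 98.9 and 90.0 RPKM in beta and 3.01 and 2.63 RPKM in delta libraries. Its order was the reverse of that of Rbp4, with transdifferentiated cells again in the middle. Adh1 was higher in transdifferentiated than in delta cells by 3.52 (SE 0.11, limma adjusted p = 5.64e-05), lower than in beta cells by -1.13 (SE 0.11, limma adjusted p = 0.000553) and higher in beta than in delta cells by 4.64 (SE 0.11, limma adjusted p = 2.53e-06). All 3 calls held in all alternatives run. Of 8 tested oxidoreductases, 2 were higher and none lower in transdifferentiated than in delta cells (all genes 5.53% and 7.2%). Against beta cells none was higher and 2 were lower (none and 3 after scaling). Of all genes there 42.5% were higher and 8.46% lower (27.8% and 26.1% after scaling). In beta against delta cells 3 were higher and 1 lower (6 and 0 after scaling). Of all genes there 11.7% were higher and 46.3% lower (27.8% and 29.7% after scaling). The list's median log2 fold changes in these comparisons were 0.205, -0.01 and 0.22, against -0.03, 0.32 and -0.36 over all genes. Dhrs4, a retinal reductase, was higher in beta than in delta cells by 1.34 (limma adjusted p = 0.000848). Its call in transdifferentiated against delta cells (0.69) ended without any 1 library other than the male transdifferentiated one (limma adjusted p up to 0.231), and that against beta cells (-0.65) ended without the male transdifferentiated or the female beta library (limma adjusted p up to 0.0920). Dhrs7 was higher by 0.97 in beta than in delta cells, a call lost without the male beta, male delta or female delta library. Between transdifferentiated and beta cells Dhrs7 did not pass as deposited (-0.49, limma adjusted p = 0.129). After scaling it passed and was lower in transdifferentiated cells (-0.89, limma adjusted p = 0.0309). Rdh14 was lower in beta than in delta cells by -0.50, which was -0.09 after scaling (limma adjusted p = 0.604).

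**Figure D5:**
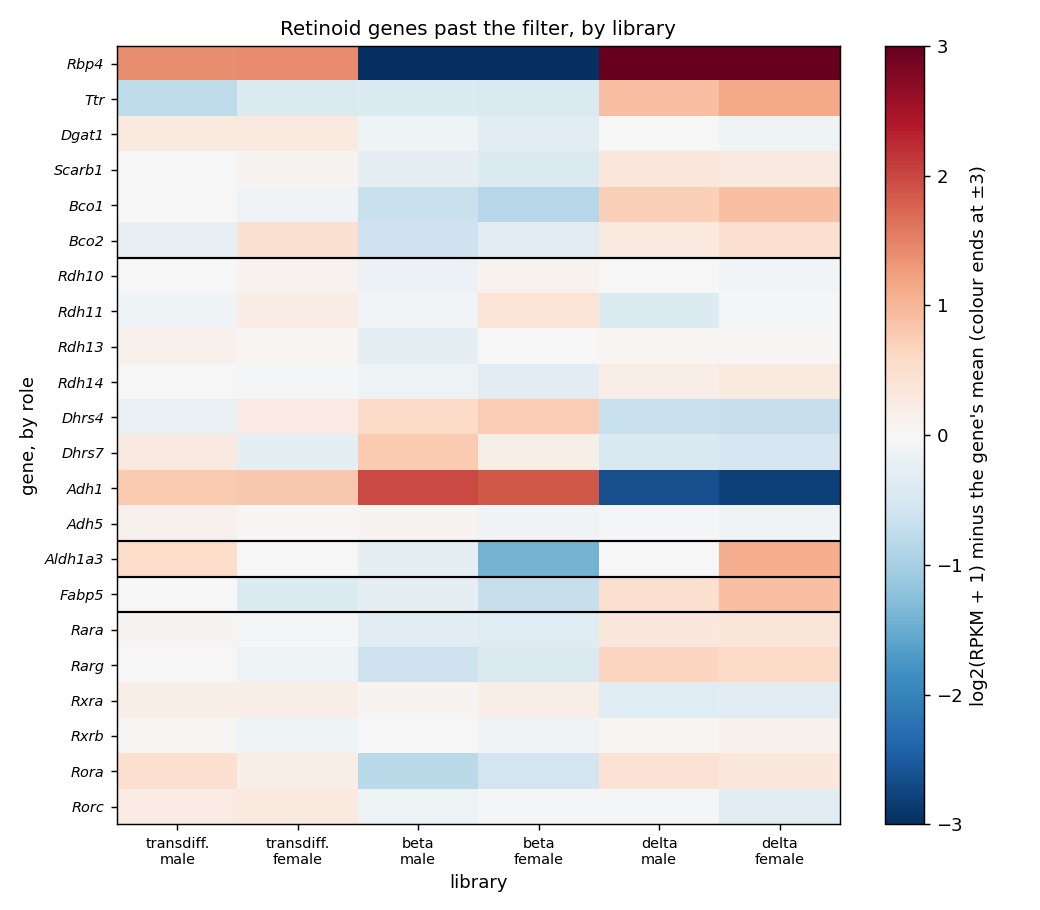
Heatmap of 22 tested genes of retinoid transport, oxidation, retinoic acid synthesis, binding and reception, in rows by role, and the 6 libraries in columns. Colour is log2(RPKM + 1) minus the gene's mean over the libraries, ending at 3 above and below it. Rbp4 is lowest in the beta libraries and Adh1 lowest in the delta libraries, and transdifferentiated libraries lie between the others for both.

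Among the genes that bind or clear retinoic acid, Fabp5 was the only 1 of 6 tested, and it fell in beta against delta cells by -1.18 (limma adjusted p = 0.00505). Of the 9 receptor genes, 6 were tested. In transdifferentiated against delta cells 1 was higher and 1 lower (all genes 5.53% and 7.2%). Against beta cells 3 were higher and none lower in transdifferentiated cells (1 and 1 after scaling). Of all genes there 42.5% were higher and 8.46% lower (27.8% and 26.1% after scaling). In beta against delta cells 1 was higher and 3 lower (2 and 3 after scaling). Of all genes there 11.7% were higher and 46.3% lower (27.8% and 29.7% after scaling). The list's median log2 fold changes in these comparisons were -0.09, 0.37 and -0.42, against -0.03, 0.32 and -0.36 over all genes. Rarg was at 6.68 and 6.14 RPKM in transdifferentiated, 4.03 and 4.72 RPKM in beta and 11.2 and 10.6 RPKM in delta libraries, with no overlap between the groups. It was lower in beta than in delta cells by -1.15 (limma adjusted p = 0.000374), a call that held throughout. Its call in transdifferentiated against delta cells (-0.68, limma adjusted p = 0.0138) ended without any 1 of the 4 libraries compared (limma adjusted p up to 0.106), and that against beta cells (0.46, limma adjusted p = 0.0171) ended after scaling (0.13) and without either transdifferentiated library (limma adjusted p up to 0.101). Rora, an orphan receptor named for its likeness to the RARs, was higher in transdifferentiated than in beta cells by 1.02 and lower in beta than in delta cells by -1.06 (limma adjusted p = 0.00203 and 0.00123).

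The partners of RXR included genes that were high in beta and low in delta cells, as Rxra was. More of the immune markers reached 1 RPKM in the beta libraries, and their part in these differences was not tested. Pparg, a fatty acid receptor that acts paired with RXR, averaged 6.42 RPKM in transdifferentiated cells, 9.35 RPKM in beta cells and 1.55 RPKM in delta cells. It was higher in transdifferentiated than in delta cells by 1.55 (limma adjusted p = 0.000941) and higher in beta than in delta cells by 2.03 (limma adjusted p = 4.27e-05), and both calls held throughout. It was lower in transdifferentiated than in beta cells by -0.48, a call that ended without either transdifferentiated library (limma adjusted p up to 0.0737). Nr1h3, the oxysterol receptor LXR alpha, was lower in transdifferentiated than in beta cells by -0.90 (limma adjusted p = 0.00323) and higher in beta than in delta cells by 1.91 (limma adjusted p = 0.00012). Its call against delta cells (1.01) ended without the female delta library (limma adjusted p = 0.0644). Vdr, the vitamin D receptor, was higher in beta than in delta cells by 1.82 (limma adjusted p = 0.00122). Its call in transdifferentiated against delta cells (1.34) ended without any 1 of the 4 libraries compared. That call also ended without the filter on low values (limma adjusted p = 0.0793). In transdifferentiated against beta cells Vdr did not pass as deposited (-0.47, limma adjusted p = 0.160) but passed after scaling (-0.87, limma adjusted p = 0.0208). The thyroid hormone receptors ran the other way: Thra and Thrb were lower in beta than in delta cells by -1.12 and -1.76 (limma adjusted p = 0.000277 and 9.94e-05). Thrb was higher in transdifferentiated than in beta cells by 1.15 (limma adjusted p = 0.000835), and Thra by 0.54, which was 0.18 after scaling (limma adjusted p = 0.214). Both were lower in transdifferentiated than in delta cells (-0.58 for Thra and -0.61 for Thrb), calls that ended without any 1 of the 4 libraries compared (limma adjusted p up to 0.178 and 0.155).

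Nr4a1, an early response gene whose product can pair with RXR, was at 41.2 and 28.7 RPKM in transdifferentiated, 6.13 and 8.04 RPKM in beta and 68.0 and 29.0 RPKM in delta libraries. The transdifferentiated and delta ranges overlapped and the beta libraries lay below both. It was higher in transdifferentiated than in beta cells by 2.14 (limma adjusted p = 0.00431) and lower in beta than in delta cells by -2.502 (limma adjusted p = 0.00175), and both calls held throughout. Nr4a2, of the same family, was higher in beta than in delta cells by 0.84 (limma adjusted p = 0.00536), and its call in transdifferentiated against delta cells (0.90) ended without any 1 of the 4 libraries compared (limma adjusted p up to 0.125). Ppard was lower in transdifferentiated than in beta cells by -0.48, a call that ended without either transdifferentiated or the female beta library (limma adjusted p up to 0.119). In all, 4 of the 19 tested partners and coregulators were higher and 2 lower in transdifferentiated than in delta cells (all genes 5.53% and 7.2%). Against beta cells 11 were higher and 3 lower (8 and 4 after scaling), with 42.5% and 8.46% of all genes. In beta against delta cells 4 were higher and 11 lower (5 and 9 after scaling), with 11.7% and 46.3% of all genes. The list's median log2 fold changes were -0.12, 0.54 and -0.85, against -0.03, 0.32 and -0.36 over all genes. Lower in beta than in delta cells were the coactivator genes Crebbp (-1.42), Ep300 (-1.46), Ncoa2 (-1.07) and Med1 (-0.82), the corepressor gene Nrip1 (-1.86), the chromatin gene Asxl1 (-0.85) and the corepressor gene Ncor1 (-0.93). The Ncor1 call ended after scaling (limma adjusted p = 0.0546) and that of Med1 without the male delta library (limma adjusted p = 0.0606). Higher in transdifferentiated than in beta cells were Nrip1 (1.34), Crebbp (1.03), Ep300 (1.09), Med1 (0.92), Asxl1 (0.73), Ncoa2 (0.89), Ncor1 (0.91) and Ncoa3 (0.43). Of these calls, those of Ncor1 and Ncoa3 ended after scaling (limma adjusted p = 0.0569 and 0.66) and those of Ep300 and Ncoa2 without the male transdifferentiated library (limma adjusted p = 0.0526 and 0.0585).

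Of 26 textbook target genes of retinoic acid, Rarb and Stra6 among them, 10 were tested. Lrat, Stra8, Hoxb1 and Cdx1 were listed at 0 in all 6 libraries. In transdifferentiated against delta cells 1 target was higher and 2 lower (all genes 5.53% and 7.2%). Against beta cells 6 were higher and 2 lower (4 and 3 after scaling). Of all genes there 42.5% were higher and 8.46% lower (27.8% and 26.1% after scaling). In beta against delta cells 1 was higher and 7 lower (2 and 5 after scaling). Of all genes there 11.7% were higher and 46.3% lower (27.8% and 29.7% after scaling). The median log2 fold changes were -0.33, 0.62 and -0.79, against -0.03, 0.32 and -0.36 over all genes. The homeobox gene Meis2 averaged 20.1 RPKM in transdifferentiated cells, 8.50 RPKM in beta cells and 32.3 RPKM in delta cells. It was higher in transdifferentiated than in beta cells (1.17, limma adjusted p = 0.00112) and lower in beta than in delta cells (-1.82, limma adjusted p = 0.000126). Its call in transdifferentiated against delta cells (-0.65) ended without the filter on low values and without any 1 of the 4 libraries compared (limma adjusted p up to 0.189). Meis1, a relative of Meis2, was higher in transdifferentiated than in beta cells by 0.72 and lower in beta than in delta cells by -0.76 (limma adjusted p = 0.00353 and 0.00222). Tshz1 was called in the same directions (0.64 and -0.82), and both calls ended after scaling (limma adjusted p = 0.210 and 0.0610). Tgm2, a transglutaminase gene, was lower in transdifferentiated than in beta cells by -0.71, a call lost without either transdifferentiated or the female beta library (limma adjusted p up to 0.0587). Ret, a receptor kinase gene, was the 1 target higher in beta than in delta cells, by 1.02 (limma adjusted p = 0.0014), and its calls in transdifferentiated cells (0.59 against delta and -0.43 against beta) each ended without either transdifferentiated library, among others (limma adjusted p up to 0.251 and 0.197).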

How the data were processed

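The deposited values are RPKM. The submitters' processing notes list STAR 2.5, featureCounts, edgeR 3.14.0 and the build GRCm38.p4, without their order or settings, and the strand setting and any composition correction of the denominators are not given in the sources used. Islets spent a night in RPMI (5.5 mM glucose, 10% serum) before dissociation with 0.25% trypsin, and libraries were made with the TruSeq RNA kit, per the labels' protocols.

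Reads were worked out from RPKM with exon lengths of GENCODE M21, and 83.3% to 86.4% of values under 50 reads came out whole within 0.01 read. For Aldh1a1 and Rarb the length was set so that the values gave the smallest whole numbers, and for Rbp4 reads are approximate. Floors of 3 reads cover counting error only. Symbols turned into dates or listed more than once, 27 in all, were left out. Genes with 1 RPKM or more in 2 or more libraries were tested on log2(RPKM + 1) in R 4.3.3. The test was the trended fit of limma 3.58.1 (2-sided, all 6 libraries in 1 fit, Benjamini-Hochberg adjustment, adjusted p under 0.05). The fit was tested on simulated data with independent noise of the fit's own size and no pool effect. That run does not measure how far the calls above hold.

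The members and gene lists were chosen with earlier results of these data known. Every member was named, with the wider genes that passed in at least 1 comparison drawn on for the text and the nearest profiles by Euclidean distance. Some genes that these rules pick are in the counts but are not reported here by name. The series text gives the populations as sorted from the same islets. Libraries of the same sex were therefore taken as pairs in the within-pool differences and in the alternative with the pool as a block. The main fit held group means only, with no term for the pool, so its tests are not paired. A numbered token in the titles differs between populations, and if it numbers pools, the pairs share only the sex. Deviations from group means correlated at 0.466 (transdifferentiated and beta), 0.361 (transdifferentiated and delta) and 0.244 (beta and delta). Alternatives were other pseudocounts and filters, median-of-ratios scaling, the pool as a block, no intensity trend and each library left out.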

Additional observations from a re-analysis of the deposited data

Results flagged for a closer look

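Aldh1a3 was set apart because its difference between transdifferentiated and delta cells had opposite signs in the pools. On the log2(RPKM + 1) scale it was 0.57 in the male pool (5.34 RPKM in transdifferentiated and 3.28 RPKM in delta cells) and -1.07 in the female pool (3.38 RPKM in transdifferentiated and 8.21 RPKM in delta cells). The pools are the libraries of each sex, and whether they share animals across populations rests on the series text. With 1 library of each kind in a pool, the difference between the pools was not tested.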

How the results depend on the processing

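Of 156 values recomputed for the 4 tested members, 131 kept their direction and their side of the threshold, 21 lost their call, 1 gained one without a change of sign (Aldh1a3 in transdifferentiated against beta cells, without the male beta library) and 3 changed sign. Rbp4 in all comparisons and Rara in beta against delta cells kept their calls throughout. With the pool as a replicate block the counts were 1925, 7022 and 7890 genes, against 1657, 6642 and 7546, and no member's call changed (Rara in transdifferentiated against beta cells, adjusted p = 0.0397). Scaling turned Rxra in transdifferentiated against beta cells to -0.31, which also gained a call (limma adjusted p = 0.0311). Without the filter on low values 1 member passed in that comparison in place of 2, and 8 wider pathway genes in place of 14 passed in transdifferentiated against delta cells. Calls against delta cells that ended there were those of Vdr, Nr4a2, Thrb, Dhrs4, Meis2 and Ret, among others. So did those of Dhrs4, Ppard, Ret, Ncor1, Ncoa3, Scarb1 and Tshz1 against beta cells, and of Dhrs7 and Bco2 in beta against delta cells. Leaving out each library in turn gave 522 to 2055 genes, 1 to 2 members and 3 to 18 pathway genes in transdifferentiated against delta cells. It gave 4132 to 7086 genes, 1 to 2 members and 15 to 29 pathway genes against beta cells, and 2 to 4 members in beta against delta cells. The low end of 522 genes came without the female delta library, and 717, 655 and 759 were left without the male delta, female and male transdifferentiated libraries. Aldh1a3 in transdifferentiated against delta cells ranged from -0.81 to 0.30 and was above 0 without the female delta library or the female transdifferentiated library (0.01). In these fits a group with 1 library is assumed to vary like the others. The causes of these changes were not tested. With 2 pools a group and 0 to 12 reads for 5 of the 9 genes, the fits do not decide whether those genes differed. Adding 1 to each RPKM before the log also makes fold changes at such low values come out small.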
